A study of Homo sapiens with 18 samples.

Results

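Flagellin of Salmonella Typhimurium SL1344 (ST) was set against that of E. coli Nissle (EcN), a probiotic strain, after 120 min on human cells. The comparison held 6 of the 18 arrays of the series, chosen by their titles: 3 ST arrays and 3 EcN arrays at 120 min, each lettered A, B and C. Both groups were HEK293 cells, a line from human embryonic kidney, with overexpressed murine TLR5, grown in SILAC media, in which lysine and arginine are heavy, medium or light. Both received isolated flagellin at a concentration matched to a multiplicity of infection (MOI) of 10, and total RNA was hybridised to Affymetrix Human Gene 2.1 ST arrays. The other arrays were ST and EcN at 60 min, used below as separate arrays of the same contrast, and mock cells without flagellin at both times, used for their levels and in alternative fits over all 18 arrays. The promoter of the TLR5 transgene, whether the line is 1 clone, and which array had which label are not stated in the labels used here, so flagellin and SILAC label cannot be told apart. The labels call the letters biological replicates without naming separate cultures, so p-values measure the spread between these arrays, which may be technical. The description fields of the ST arrays name mock, against their titles, source names and treatment fields. The titles were followed.

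Flagellin is the protein of the bacterial flagellar filament, and TLR5 is the cell surface receptor that binds its conserved part. TLR5 signals through the adaptor MyD88 and IRAK kinases to NF-kB and MAP kinases, which switch on feedback inhibitors such as NFKBIA and TNFAIP3, chemokines such as CXCL8, and immediate-early transcription factors such as FOS and EGR1. Interferon-stimulated genes are those that interferons induce, many of them with antiviral roles.

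Values are log2 levels as deposited, and a difference is ST minus EcN on that scale, with its standard error (SE) from limma. Of 53617 transcript clusters, the units the array summarises, 23871 had exactly 1 gene symbol. The 15756 of these with a mean above the mean of the array medians, 2.30, were tested, and they stood for 14853 genes. Array medians lay between 2.27 and 2.32 over the series. Of the HEK293 markers, 5 of 6 had a mean above 2.30, with NEFM below, and their summed level was 35.4 to 35.9 in ST and 35.4 to 35.8 in EcN. Of the other marker lists, 4 of 5 intestinal epithelium genes, 2 of 4 leukocyte genes, 2 of 5 fibroblast genes and 0 of 2 endothelial genes did so. Of the leukocyte genes, PTPRC and CD3E were below, CD14 averaged 2.59 and CD68, a lysosomal protein, 9.34. The fibroblast genes below were COL1A2, DCN and PDGFRB.

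Sequences of some of the named genes are given first. The promoter stretches are of genes named in the interferon, NF-kB and YAP parts of the comparison, whether or not their levels overlapped between the groups. They are 90 bases each, upstream of the transcription start and 5′ to 3′ on the gene's strand, from RefSeq (GRCh38.p14). Capitals mark matches on either strand to GAAA, any 2 bases and GAAA, a form of the interferon-stimulated response element (2 overlapping matches in ISG15, chr1:1013350-1013439), to GGNNTTTCC, a form of the NF-kB motif (CXCL8, chr4:73740437-73740526, and NFKBIA on the minus strand, chr14:35404782-35404871), and to GGAATG, a form of the TEAD motif (CCN2 on the minus strand, chr6:131951420-131951509).
ISG15: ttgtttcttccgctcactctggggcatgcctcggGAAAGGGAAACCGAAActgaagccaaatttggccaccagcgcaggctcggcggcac
CXCL8: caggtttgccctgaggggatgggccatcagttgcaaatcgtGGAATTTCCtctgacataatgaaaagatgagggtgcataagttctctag
NFKBIA: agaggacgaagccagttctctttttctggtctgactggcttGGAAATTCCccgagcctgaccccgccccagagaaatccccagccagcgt
CCN2: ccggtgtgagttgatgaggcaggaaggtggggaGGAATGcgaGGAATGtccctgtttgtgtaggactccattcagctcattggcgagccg
In the 250 bases upstream of all 35116 promoters of the table, the first of these motifs occurred in 3.02%, GGNNTTTCC in 5.48% and GGAATG in 11.9%. The motifs were chosen for what is known of these genes, and a match is a description of the letters only.

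For the microRNA loci with the largest differences, the mature sequences are shown with the seed, bases 2 to 8, in capitals. The arrays measured total RNA at the locus, not the mature microRNA. The loci lie at chrX:45746180-45746202 (minus strand), chr13:65966352-65966371 (minus strand), chrX:110082121-110082144 and chr5:132365513-132365534 (minus strand) in GRCh38.p14, in the order of the lines.
hsa-miR-221-3p: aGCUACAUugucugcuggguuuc
hsa-miR-548x-3p: uAAAAACUgcaauuacuuuc
hsa-miR-3978: gUGGAAAGcaugcauccagggugu
hsa-miR-3936: uAAGGGGUguauggcagaugca
The 4 seeds differ from each other.

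The first question was which transcripts differ between the flagellins at 120 min. With 3 arrays against 3, limma called 0 of 15756 clusters at an adjusted p under 0.05 (0%), and the smallest adjusted p was 0.159. With the spread shared with the flagellin arrays at 60 min, 2 clusters were called with ST above EcN and 6 below. At an unadjusted p under 0.05, 1017 clusters were higher in ST (6.45%) and 1206 were lower (7.65%). All 3 ST levels lay above all 3 EcN levels in 1771 clusters (11.2%) and below them in 1656 (10.5%). Within every letter, ST was higher in 3310 of the 15756 clusters and lower in 3124. These numbers are the background for every count of genes below, and the word apart is used for groups whose arrays do not overlap. Members of a list were measured on the same 6 arrays and are not replicates. List counts are over members with a single-symbol cluster above the level filter: 29 of 34 interferon-stimulated genes, 18 of 19 in the TLR5-MyD88 list, 17 of 18 NF-kB subunits and inhibitors, 15 of 20 cytokines, 11 of 18 other NF-kB targets, 27 of 28 immediate-early factors, 9 of 15 heat shock chaperones, 9 of 10 NRF2 targets, 13 of 14 p53 targets, 23 of 24 ribosome biogenesis factors and 12 of 18 sterol genes. Of small RNAs, 53 of 158 C/D box RNAs, 65 of 81 H/ACA and Cajal body RNAs and 245 of 1009 microRNA loci were above it.

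Most differences were small. The median difference was 0.01, the median size 0.13 and its 90th percentile 0.36, against a median SE of 0.12. The clusters that differed at least 1.5-fold numbered 110 higher and 178 lower in ST, of which 78 and 147 were apart. At least 2-fold, 7 were higher and 9 lower, of which 4 and 8 were apart. In simulated data on the same 15756 clusters, 37.9% of those changed 1.5-fold, 75.4% of those changed 2-fold and 89.2% of those changed 3-fold were called. With the letter added to the fit as a block, these shares were 1.82%, 44.6% and 78.8%. The median number of false calls was 6 without the block and 1 with it. In the data themselves 0 clusters were called, also among those that differed at least 2-fold, so the simulated shares may not hold for them.

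**Figure D1:**
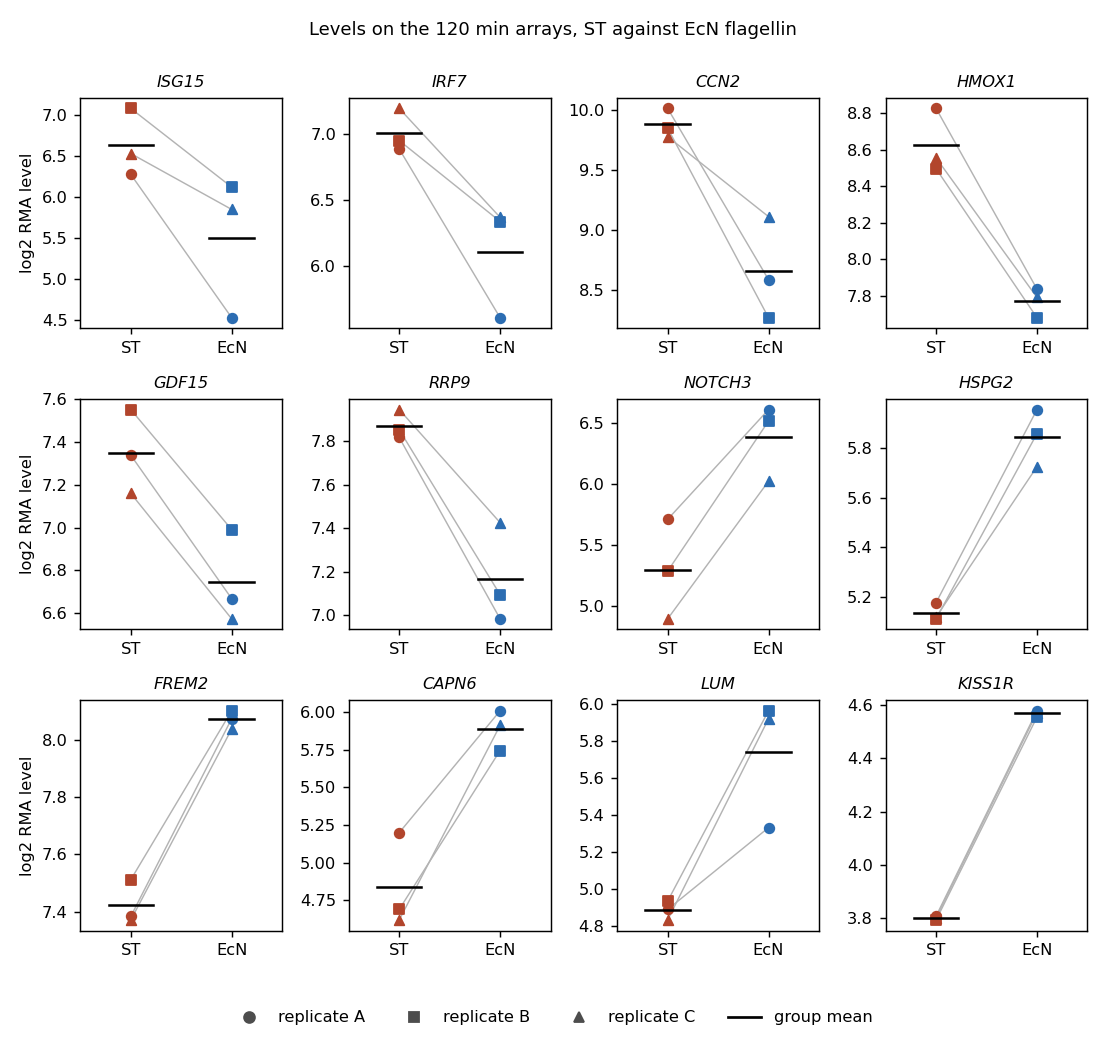
Log2 RMA levels (y axis, separate scale per panel) of 12 named genes on the ST arrays (left) and EcN arrays (right) at 120 min; symbols mark the replicate letter, grey lines join the same letter, and black bars are group means of 3 arrays. The ST and EcN arrays do not overlap in any panel, ISG15 having its lowest level, 4.53, on EcN A and KISS1R holding within 0.03 in each group. The genes were chosen for their separation.

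Interferon-stimulated genes, many of them with antiviral roles, lay mostly higher in ST. ISG15, a ubiquitin-like modifier, had levels of 6.27, 7.08 and 6.53 on ST arrays A, B and C, against 4.53, 6.12 and 5.84 on EcN arrays A, B and C. The lowest ST array stood above the highest EcN array, by less than the spread among the EcN arrays, where A was the low one. The difference was 1.13 ± 0.41 (adjusted p = 0.304, limma), or 1.75, 0.96 and 0.68 within letters A, B and C.

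IRF7, a transcription factor that drives interferon production, had 6.89, 6.95 and 7.20 in ST, against 5.60, 6.34 and 6.37 in EcN. The groups were apart, again with EcN A lowest (difference 0.91 ± 0.21, adjusted p = 0.228, limma). IFI6, a mitochondrial and endoplasmic reticulum protein induced by interferon, had 10.78, 10.91 and 11.08 in ST, against 9.49, 10.50 and 10.40 in EcN, a difference of 0.79 ± 0.26. OAS1, a synthetase that activates RNase L, had 4.59, 5.22 and 5.10 in ST, against 2.90, 4.81 and 4.77 in EcN. Its groups overlapped, since ST A lay below EcN B and C.

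Over the list, 26 of 29 tested members had a higher mean in ST and 21 were higher within every letter, beside 3310 of all 15756 clusters. limma called 0, and at an unadjusted p under 0.05 there were 5 higher and 0 lower. The 6 that were apart with ST above were ISG15, IRF7, IFI6, IRF9, BST2 and SAMD9, which is 20.7% of the list beside 11.2% of all clusters. The list's median difference was 0.33, beside 0.01 over all clusters, and by letter it was 0.42, 0.21 and 0.28. It was 0.34 without both arrays lettered C and 0.15 without EcN A. IRF9, an interferon regulatory factor, had 2 clusters, with differences of 0.76 ± 0.17 and 0.48 ± 0.15. Class I antigen presentation genes, many of them also under interferon control, had a median of -0.03. Among their 13, NLRC5, a transactivator of class I genes, was lower in ST with -0.41 ± 0.11, and no member was apart with ST above. Leaving out 1 array moved that median between -0.06 (without EcN A) and 0.02 (without EcN C).

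The NF-kB genes, which TLR5 is best known for inducing, differed by letter far more than by flagellin. NFKBIA, the inhibitor that NF-kB itself induces, had 8.39, 8.37 and 10.64 on ST arrays A, B and C, against 8.09, 8.17 and 10.34 on EcN arrays A, B and C. The C arrays of both groups stood more than 2 log2 units above the others, and the groups overlapped. The difference was 0.27 ± 0.79 overall and 0.30, 0.20 and 0.30 within A, B and C.

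TNFAIP3, a ubiquitin-editing enzyme that restrains NF-kB, had 6.52, 6.38 and 9.60 in ST, against 5.99, 6.27 and 9.27 in EcN. CXCL8, a chemokine for neutrophils, had 2.90, 2.71 and 8.76 in ST, against 2.67, 2.57 and 7.47 in EcN. TNF had 3.17, 3.003 and 6.12 in ST, against 2.73, 2.86 and 5.69 in EcN, and 6 further clusters hold the same values. Another cluster of TNF had 2.78, 2.53 and 5.89 in ST, against 2.17, 2.62 and 4.98 in EcN. In each of these the ST array was the higher one within every letter, except for letter B of that last cluster, while arrays A and B of CXCL8 and TNF lay near the array medians. The differences were 0.32 ± 1.11 for TNFAIP3, 0.55 ± 1.91 for CXCL8 and 0.34 ± 1.04 for TNF, so the spread between letters exceeded each. Without both arrays lettered C all 4 kept the sign of their difference.

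The mock arrays were split as well. The 3 mock arrays at 120 min had NFKBIA at 8.22, 8.39 and 10.83, so 1 mock array stood as high as the C arrays of both flagellins. CXCL8 had 2.26, 2.46 and 7.53 in mock. The A and B arrays of both flagellins, at 8.09 to 8.39 for NFKBIA and 2.57 to 2.90 for CXCL8, stood near the lower mock arrays. On A and B these genes thus showed little or no rise over those mock arrays, which limits every comparison of the flagellins here. Many results that draw on letter C are therefore also given by letter or without it, and the others include it.

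**Figure D2:**
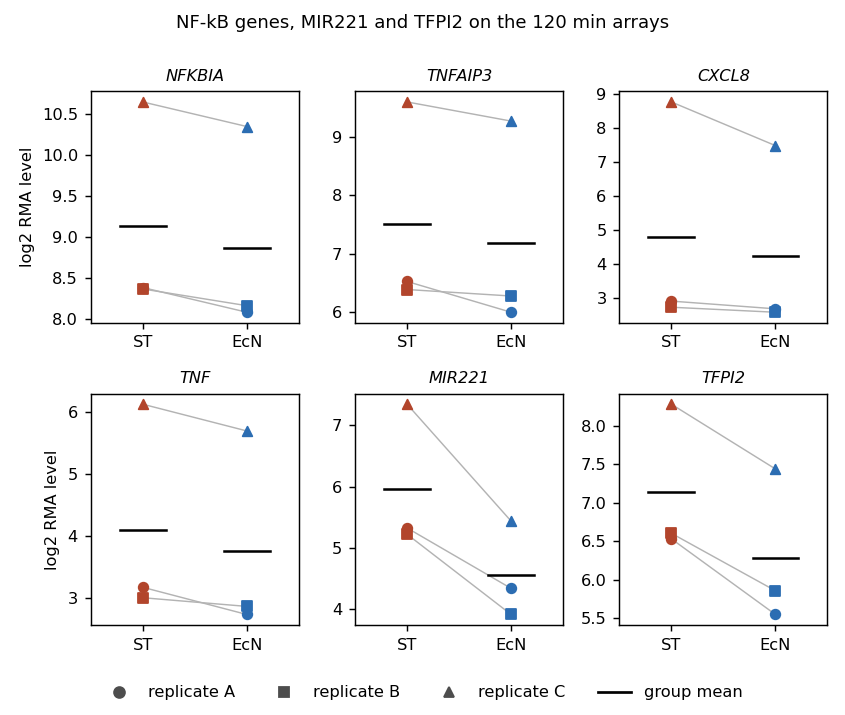
Log2 RMA levels (y axis, separate scale per panel) of 4 NF-kB genes, MIR221 and TFPI2 on the ST arrays (left) and EcN arrays (right) at 120 min; symbols mark the letter, grey lines join the same letter, black bars are group means. The C arrays (triangles) stand above A and B in both groups, for CXCL8 at 8.76 in ST and 7.47 in EcN, and each line slopes down from ST to EcN.

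By list, the 17 NF-kB subunits and feedback inhibitors had a median difference of 0.12, with 16 of 17 means higher in ST. limma called 0, none passed an unadjusted p under 0.05 in either direction (0 and 0), and 1 was apart (OTUD7B, a deubiquitinase), or 5.88% beside 11.2%. The median was 0.09 without both arrays lettered C, -0.06 without ST C, 0.30 without EcN C, 0.02 without EcN A, 0.01 without EcN B and 0.20 without ST B. The 11 other NF-kB targets had a median of 0.01, which was 0.39 without EcN C, 0.27 without ST A, 0.17 without ST B, -0.08 without ST C, -0.06 without EcN B and -0.04 without EcN A, so that its sign rests on single arrays. Of them, 1, the apoptosis regulator CFLAR, was apart with ST below (-0.10). The 15 cytokines and chemokines had a median of 0.27, which was 0.13 without both arrays lettered C, -0.18 without ST C, 0.78 without EcN C, 0.71 without ST A, 0.51 without ST B, 0.00 without EcN A and 0.14 without EcN B. Among them, LIF and CSF1 were apart with ST above (13.3% beside 11.2%). LIF, a cytokine of the interleukin-6 family, had 5.01, 5.30 and 5.25 in ST, against 4.26, 4.54 and 4.89 in EcN (0.62 ± 0.17, adjusted p = 0.243, limma). The mock arrays at 120 min had LIF at 4.80 to 5.15, a range that overlapped ST, while EcN A and B lay below it. CSF1, a macrophage growth factor, differed by 0.42.

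Upstream, the TLR5-MyD88 list of 18 had 4 members apart with ST above (22.2% beside 11.2%) and 1 below. IRAK1, the kinase recruited by MyD88, had 8.77, 8.74 and 8.68 in ST, against 8.41, 8.47 and 8.38 in EcN, with groups apart (0.31 ± 0.08). The mock arrays at 120 min spanned 8.25 to 8.84 for IRAK1 and so covered the levels of both flagellins. MYD88 itself, the kinase MAP3K7 and the IkB kinase subunit CHUK were also apart, and CHUK differed by 0.26 ± 0.11. PELI1, a ubiquitin ligase of the pathway, was the 1 member below, with a difference of -0.16. The human TLR5 gene, not the murine transgene, had 3.17, 3.59 and 3.50 in ST, against 3.78, 4.05 and 3.53 in EcN. ST was lower within every letter, and the groups overlapped, ST B lying above EcN C (-0.37 ± 0.17). The list's median was 0.08, and 0.02 without both arrays lettered C, 0.04 without ST C and 0.05 without EcN B.

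Immediate-early transcription factors had a median difference of 0.28, and 25 of 27 means were higher in ST. Of them, 12 were higher within every letter, beside 3310 of all 15756 clusters. The list's median was 0.22 without both arrays lettered C, 0.07 without ST C, and 0.13 without EcN A and also without EcN B. FOS and FOSL1 were the 2 that were apart (7.41% beside 11.2%). limma called 0, and an unadjusted p under 0.05 was reached by 3 higher and 0 lower. FOSL1, an AP-1 subunit, had 7.21, 7.09 and 7.85 in ST, against 6.81, 6.27 and 7.09 in EcN (0.66 ± 0.26). FOS differed by 0.51 ± 0.20, JUN by 0.49 ± 0.30 and EGR1 by 0.42 ± 0.31. EGR1 spanned 9.41 to 10.02 in ST, 8.81 to 9.94 in EcN and 9.80 to 10.99 in mock at 120 min. Of the 14 MAP kinase feedback genes, DUSP1 and DUSP5, phosphatases that switch off MAP kinases, differed by 0.62 ± 0.33 and 0.33 ± 0.14, and the list's median was 0.04, between -0.02 (without EcN B) and 0.11 (without EcN C) with 1 array left out. SPRY4, an inhibitor of receptor tyrosine kinase signalling, was the 1 member apart, with ST below (-0.17).

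Targets of YAP and serum response factor held a gene with a difference of more than 2-fold. CCN2, a secreted matricellular protein also called CTGF, had 10.02, 9.85 and 9.78 on ST arrays A, B and C, against 8.59, 8.27 and 9.11 on EcN arrays A, B and C. The groups were apart by more than 0.6, with EcN C the highest of its group. The difference was 1.23 ± 0.21, or 2.34-fold (95% interval 0.74 to 1.71 on the log2 scale, adjusted p = 0.194, limma). Its relative CCN1 had 9.58, 9.49 and 9.66 in ST, against 8.73, 8.58 and 9.43 in EcN (0.67 ± 0.21). These 2 were the members apart among 10 (20% beside 11.2%). The list's median was 0.01, between -0.02 (without EcN B) and 0.08 (without EcN C) with 1 array left out. ANKRD1, another target, differed by 0.53 ± 0.32 and overlapped.

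Stress gene lists also lay higher in ST. All 9 tested heat shock chaperones had a higher level in ST within every letter, beside 3310 of all 15756 clusters, and 5 were apart (55.6% beside 11.2%). limma called 0, and an unadjusted p under 0.05 was reached by 6 higher and 0 lower. Their median was 0.32, and 0.24 without both arrays lettered C. HSPH1, a nucleotide exchange factor of HSP70, had 9.77, 9.69 and 10.07 in ST, against 9.40, 9.39 and 9.56 in EcN (0.39 ± 0.12, adjusted p = 0.265, limma). DNAJA1, an HSP70 co-chaperone, differed by 0.45 ± 0.17, HSP90AB1 by 0.40 ± 0.15 and HSPA1L by 0.38 ± 0.12. The 18 genes of the unfolded protein response and ATF4 had a median of 0.13, with the transcription factor DDIT3 at 0.36 ± 0.10 and the chaperone HSPA5 at 0.34 ± 0.10. Both were apart with ST above, as was the transcription factor XBP1 (0.24), so 3 of 18 were (16.7% beside 11.2%). The list's median was 0.12 without both arrays lettered C, 0.05 without ST C, 0.07 without EcN B or EcN C and 0.08 without ST A. The member that differed most was DDIT4, a stress inhibitor of mTORC1, and it lay the other way, with 6.86, 7.15 and 6.46 in ST, against 7.70, 7.25 and 6.94 in EcN (-0.47 ± 0.23). Its groups overlapped, ST B lying above EcN C.

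Targets of NRF2, the factor of the oxidative stress response, included HMOX1, which encodes the haem-degrading enzyme haem oxygenase. HMOX1 had 8.83, 8.50 and 8.55 in ST, against 7.84, 7.68 and 7.79 in EcN. No ST array came within 0.6 of an EcN array, and the difference was 0.86 ± 0.11, or 1.81-fold (95% interval 0.59 to 1.12, adjusted p = 0.159, limma). The 3 mock arrays at 120 min lay between the flagellins, at 8.01 to 8.45. Of the 9 tested members, 5 were apart with ST above (55.6% beside 11.2%), namely HMOX1, NQO1, GCLM, GCLC and ME1, and 0 below. limma called 0, and an unadjusted p under 0.05 was reached by 4 higher and 0 lower. GCLM, a subunit of the enzyme that starts glutathione synthesis, differed by 0.38 ± 0.10, NQO1, a quinone reductase, by 0.29 ± 0.11 and the thioredoxin reductase TXNRD1 by 0.24 ± 0.12. The median was 0.23, and 0.22 without both arrays lettered C.

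Targets of p53 had 6 of 13 apart with ST above (46.2% beside 11.2%) and 0 below, with a median of 0.24, or 0.22 without both arrays lettered C and 0.14 without both lettered A. limma called 0, and an unadjusted p under 0.05 was reached by 6 higher and 0 lower. GDF15, a stress cytokine, had 7.34, 7.55 and 7.16 in ST, against 6.67, 6.99 and 6.57 in EcN (0.61 ± 0.15, adjusted p = 0.228, limma). CDKN1A, the cell cycle inhibitor p21, had 6.27, 6.27 and 6.45 in ST, against 5.89, 5.90 and 5.85 in EcN (0.45 ± 0.09). TP53I3, an oxidoreductase, differed by 0.59 ± 0.14 and the kinase PLK3 by 0.51 ± 0.20. BAX and TNFRSF10B, both of the apoptosis machinery, completed the 6.

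Factors of ribosome biogenesis had 9 of 23 apart with ST above (39.1% beside 11.2%). limma called 0, and an unadjusted p under 0.05 was reached by 6 higher and 0 lower. RRP9, a component of the U3 small nucleolar ribonucleoprotein, had 7.82, 7.85 and 7.94 in ST, against 6.98, 7.10 and 7.43 in EcN (0.70 ± 0.13, adjusted p = 0.194, limma). RRP12 and UTP15, other assembly factors, differed by 0.41 ± 0.10 and 0.37 ± 0.13. The median was 0.14, and 0.09 without both arrays lettered C and 0.06 after quantile normalization anew. Cytosolic ribosomal proteins had a median of 0.09, or 0.00 without ST C. Of these 24, 2 were apart above, RPL30 at 0.28 and RPS19 at 0.13 (8.33% beside 11.2%), and 1 below, RPL22 at -0.30 (4.17% beside 10.5%). Nuclear-encoded respiratory chain genes had a median of 0.11, or 0.05 without EcN B, with 6 of 19 apart above (31.6% beside 11.2%).

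Sterol synthesis genes lay the other way in the means of 11 of 12 members, with a median of -0.12. With 1 array left out, that median ran from -0.20 (without EcN C) to -0.08 (without EcN A). By letter it was -0.19, -0.18 and -0.04 for A, B and C. Within every letter, 5 members were lower in ST, beside 3124 of all 15756 clusters, and 1 was higher. INSIG1, which retains SREBP precursors in the endoplasmic reticulum, had 9.57, 9.58 and 9.84 in ST, against 10.09, 10.01 and 9.90 in EcN, with groups apart (-0.34 ± 0.11). LSS, which makes lanosterol, was the other member apart (-0.26 ± 0.10), so 2 of 12 were (16.7% beside 10.5% with ST below). Cell cycle genes were split. The replication factors CDC6 and PCNA differed by 0.25 ± 0.09 and 0.24 ± 0.08, and MKI67 and CCND1, a proliferation marker and cyclin D1, by -0.30 ± 0.09 and -0.25 ± 0.10. All 4 were apart, with 6 of 24 members above (25% beside 11.2%) and 2 below (8.33% beside 10.5%).

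The remaining lists had medians near that of all clusters: 0.02 for hypoxia and glycolysis, 0.00 for TGF-beta and BMP feedback and 0.06 for 7 replication-dependent histones, none of them with a member apart. With 1 array left out, the first ran from -0.04 (without EcN B) to 0.08 (without EcN A), the second from -0.05 (without ST B) to 0.11 (without ST C) and the histones from 0.03 (without EcN A) to 0.13 (without ST C). The 18 tRNA synthetases and amino acid transporters had a median of 0.08, or 0.00 after quantile normalization anew, with 1 apart, the seryl-tRNA synthetase SARS1 (0.28 ± 0.09). Housekeeping genes had 0 of 9 apart, with all 9 means higher in ST and 4 members higher within every letter. Their median was 0.13, and within letters A, B and C it was -0.05, 0.13 and 0.25. Without ST C it was 0.08, without ST A, ST B or EcN C 0.19 to 0.20. ACTB, encoding beta-actin, differed by 0.43 ± 0.34 and GAPDH by 0.11 ± 0.12. Whether this shift bears on the lists above was not tested.

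**Figure D3:**
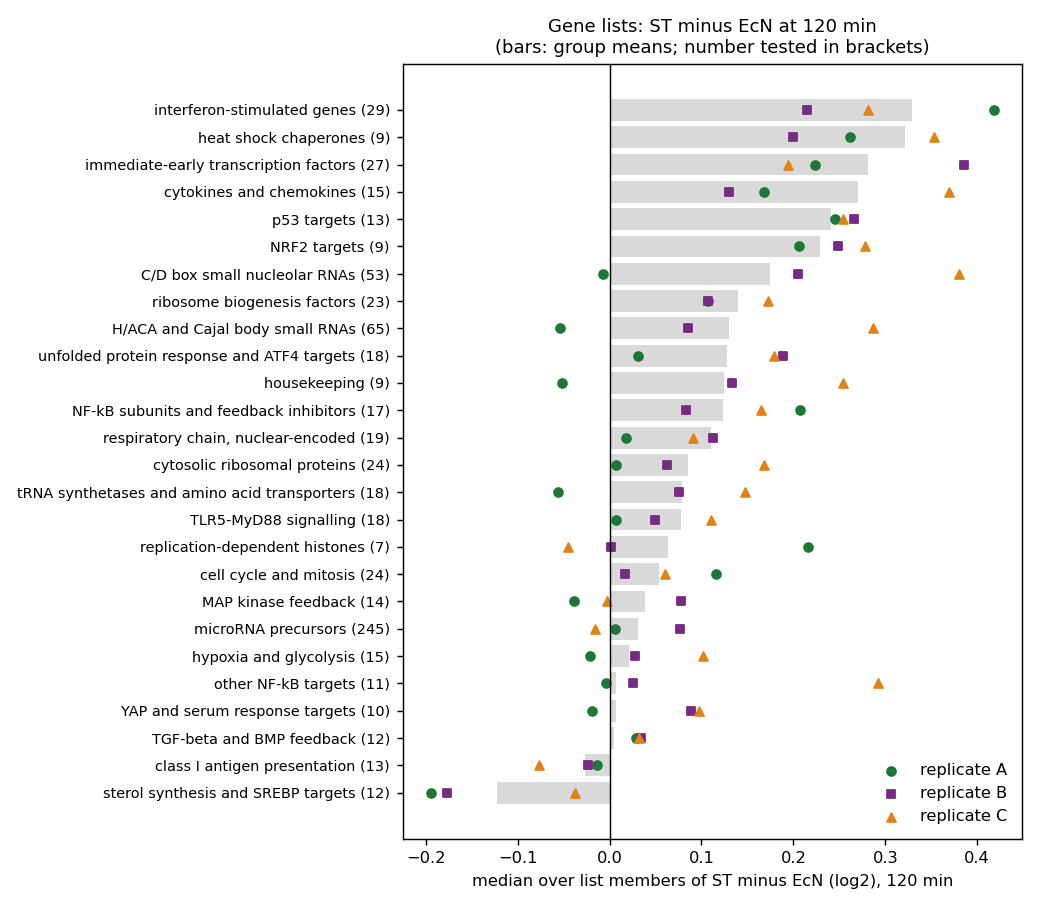
Median over the tested members of each gene list with at least 5 of them, marker lists left out, of ST minus EcN at 120 min (x axis, log2); grey bars are from group means of 3 arrays against 3, symbols are the medians within letters A, B and C, and brackets give the number of members. Interferon-stimulated genes (0.33) and heat shock chaperones (0.32) have the highest bars and sterol synthesis genes (-0.12) the lowest, with all 3 letters on the side of the bar in these lists.

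The 5 clusters with the smallest p in each direction all had an adjusted p of 0.159 (limma). Besides HMOX1, those higher in ST were MMP13, a collagenase, CDK2AP2, a protein that associates with CDK2, and the non-coding genes MIR570HG and SCAMP1-AS1. MMP13 had 2.66, 2.96 and 2.77 in ST, against 1.92, 2.14 and 1.94 in EcN (0.79 ± 0.11). All 3 EcN levels lay below the filter of 2.30, so it was tested only because of its ST levels, and the size of its difference is uncertain. MIR570HG had 4.24, 3.74 and 4.21 in ST, against 3.10, 2.96 and 2.96 in EcN (1.06 ± 0.15), while its 3 other tested clusters differed by 0.12, 0.32 and 0.42. CDK2AP2 differed by 0.87 ± 0.12. SCAMP1-AS1 had 2.78, 2.81 and 2.74 in ST, against 2.01, 2.06 and 2.10 in EcN (0.72 ± 0.08), and it too passed the filter only through ST.

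Those lower in ST included the receptor KISS1R, with 3.81, 3.79 and 3.80 in ST, against 4.58, 4.56 and 4.57 in EcN (-0.77 ± 0.08). The mock arrays at 120 min stood at 3.62 to 3.97, with the ST arrays within that range and the EcN arrays above it. HSPG2, the basement membrane proteoglycan perlecan, had 5.18, 5.11 and 5.12 in ST, against 5.95, 5.86 and 5.72 in EcN (-0.71 ± 0.09). FREM2, an extracellular matrix protein of the Fraser complex, had 7.38, 7.51 and 7.37 in ST, against 8.07, 8.10 and 8.04 in EcN (-0.65 ± 0.09). NCAM2, a neural adhesion molecule, differed by -0.66 ± 0.08. MIR3978, shown above, had 2.61, 2.36 and 2.55 in ST, against 3.45, 3.48 and 3.39 in EcN (-0.93 ± 0.10). In mock at 120 min, HSPG2 spanned 5.19 to 6.25, more than its difference, and FREM2 7.09 to 7.89. NCAM2 spanned 3.61 to 4.01 there and MIR3978 3.17 to 3.35.

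Ranking by the smallest difference within any letter brought forward further clusters in which every letter differed in the same direction. NOTCH3, a Notch receptor, had 5.71, 5.29 and 4.90 in ST, against 6.61, 6.52 and 6.02 in EcN (-1.08 ± 0.23, 2.12-fold). CAPN6, a calpain without protease activity that binds microtubules, had 5.20, 4.69 and 4.62 in ST, against 6.01, 5.74 and 5.91 in EcN (-1.05 ± 0.17, adjusted p = 0.17, limma). MAOA, a monoamine oxidase, differed by -0.92 ± 0.18 and VCX2, a gene of the X chromosome, by -1.06 ± 0.15. Each of these 4 was apart. The mock arrays at 120 min spanned 4.88 to 7.05 for NOTCH3 and 4.18 to 6.19 for MAOA, and so covered the levels of both flagellins. They spanned 5.28 to 5.98 for CAPN6 and 2.73 to 3.48 for VCX2.

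On the higher side, MIR221 had 5.32, 5.22 and 7.35 in ST, against 4.33, 3.91 and 5.44 in EcN. Its groups overlapped, EcN C lying above ST A and B, and it was 0.99, 1.31 and 1.91 higher in ST within letters A, B and C. TFPI2, an inhibitor of serine proteases, had 6.53, 6.60 and 8.28 in ST, against 5.55, 5.86 and 7.44 in EcN, and shared that pattern. In mock at 120 min, MIR221 spanned 4.71 to 7.29 and TFPI2 5.11 to 7.75. DNAH17, an axonemal dynein, differed by 0.84 ± 0.15 and the 5S ribosomal pseudogene RNA5SP514 by 0.89 ± 0.21. The mock arrays at 120 min had DNAH17 at 3.30 to 3.48, below all ST arrays, and RNA5SP514 at 4.58 to 5.41, above all EcN arrays. Another 5S pseudogene, RNA5SP150, lay the other way (-1.20 ± 0.43), and its groups overlapped, ST B lying above EcN C.

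LUM, a proteoglycan on the list of fibroblast markers, had 4.89, 4.93 and 4.83 in ST, against 5.33, 5.97 and 5.92 in EcN (-0.86 ± 0.17). COL1A1 differed by -0.31 ± 0.13, and the summed level of the 5 fibroblast markers was 14.4 to 15.2 in ST and 15.9 to 16.6 in EcN. With COL1A2, DCN and PDGFRB at means below 2.30, the difference of the sums comes mainly from these 2 genes. The sum adds levels in bulk RNA of a cell line and does not count cells of a type. HSPG2 and FREM2 were lower in ST as well, and any link between these differences was not tested. Of the intestinal markers, summed at 20.4 to 20.7 in ST and 20.2 to 21.0 in EcN, LGR5 was 0.63 ± 0.15 higher and CDX2 differed by -0.39 ± 0.17. Leukocyte markers summed to 14.3 to 15.2 in ST and 14.7 to 15.1 in EcN.

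Of 53 tested C/D box small nucleolar RNAs, which guide methylation of ribosomal RNA, 10 were apart with ST above (18.9% beside 11.2%) and 4 below (7.55% beside 10.5%). Their median was 0.17, but -0.01, 0.21 and 0.38 within letters A, B and C, and -0.08 at 60 min. Without ST C it was 0.01 and without EcN B 0.03. Of 65 H/ACA and Cajal body RNAs, 11 were above (16.9% beside 11.2%) and 6 below (9.23% beside 10.5%). The H/ACA kind guides pseudouridylation. The list's medians were -0.05, 0.09 and 0.29 by letter, and its median from group means was 0.13, or 0.02 without ST C. SNORA38B had 10.65, 11.01 and 9.20 in ST, against 11.29, 11.82 and 11.41 in EcN (-1.21 ± 0.43), and by letter it differed by -0.63, -0.80 and -2.20. SNORA14A differed by -1.19 ± 0.22, with an ST mean of 2.28, below the filter, SNORA2A by 0.95 ± 0.29, SCARNA2 by 0.83 ± 0.22 and SNORD37 by 0.74 ± 0.28.

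Of 245 microRNA loci tested, 10 were apart with ST above (4.08% beside 11.2%) and 11 below (4.49% beside 10.5%), with a median of 0.03. MIR548X2 had 1.48, 1.98 and 1.94 in ST, against 2.74, 2.99 and 3.22 in EcN (-1.18 ± 0.18). MIR3936 differed by -1.16 ± 0.32. Their ST means, 1.80 and 2.19, lay below the filter of 2.30, so both loci were tested only because of their EcN levels.

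The length of the gene separated the directions across the table. Among the 13754 protein-coding clusters, the 1620 with ST above had a median gene length of 18.6 kb and the 1534 with ST below one of 70.2 kb, against 28.4 kb over all. In 5 equal bins of length, ST lay above EcN without overlap in 16.5% of the shortest bin and 5.85% of the longest, and below it in 5.89% of the shortest and 23.6% of the longest. The median difference was 0.06, 0.04, 0.02, -0.00135 and -0.09 from the shortest to the longest bin. It was -0.07, -0.09 and -0.10 in the longest bin within letters A, B and C, and -0.06 at 60 min. In 3 equal bins of expression, lowest first, it was -0.12, -0.10 and -0.06 in the longest genes, and 0.02, 0.06 and 0.10 in the shortest. Genes of neighbouring function share lengths and clusters are not independent, so these are descriptions, and their part in the list medians was not tested.

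**Figure D4:**
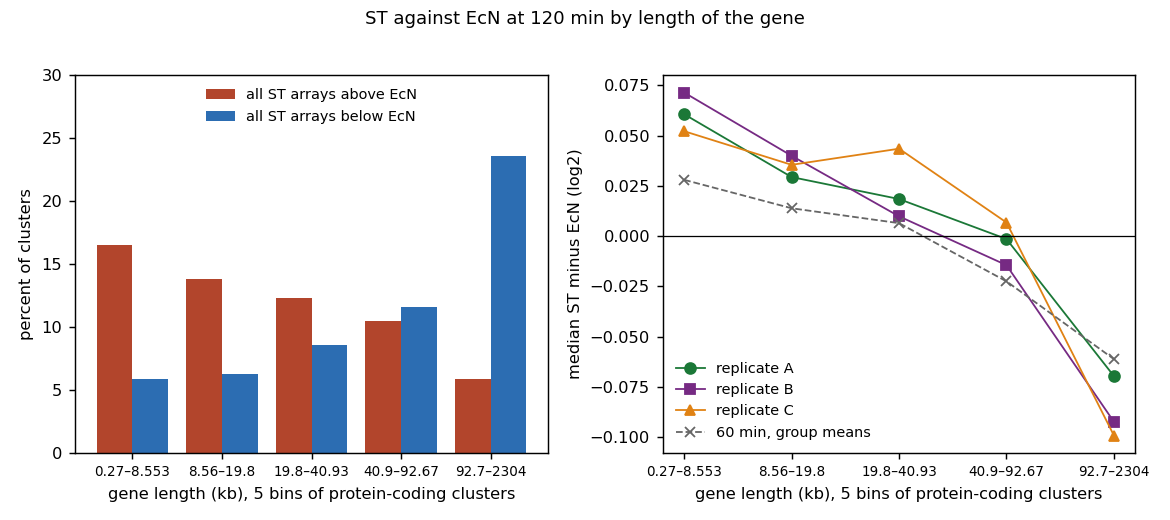
Protein-coding clusters in 5 bins of gene length (x axis, kb). Left, percent of clusters with all ST arrays above (red, left bar) or below (blue, right bar) all EcN arrays at 120 min, running to 5.85% and 23.6% in the longest bin. Right, median ST minus EcN (log2) within letters A, B and C and, dashed, from group means at 60 min, each lowest in the longest bin.

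The arrays at 60 min, separate from those at 120 min, allowed the same contrast to be set beside it. Of the 1771 clusters apart with ST above at 120 min, 1212 also had a positive difference at 60 min (68.4%, beside 47.6% of all clusters), and of the 1656 below, 1321 also had a negative one (79.8%, beside 52.4%). Clusters apart in the same direction at both times numbered 360 above, or 20.3% of the set at 120 min and 27.1% of the 1326 at 60 min, and 498 below, or 30.1% and 31.6% of the 1574 at 60 min. A further 91 were apart in opposite directions. The samples of a letter may share a culture across times, which the labels do not say.

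By gene, ISG15 differed by 1.20 at 60 min and 1.13 at 120 min, IRF7 by 0.86 and 0.91, CCN2 by 1.08 and 1.23, HMOX1 by 0.64 and 0.86, and MIR221 by 1.04 and 1.41. On the lower side the values at 60 and 120 min were -1.02 and -1.05 for CAPN6, -0.82 and -1.08 for NOTCH3, -0.66 and -0.65 for FREM2, and -0.88 and -0.86 for LUM. KISS1R (0.13 at 60 min, -0.77 at 120 min), VCX2 (0.07 and -1.06) and SCAMP1-AS1 (-0.34 and 0.72) had the opposite sign at 60 min. Of the clusters ranked by the smallest difference within a letter, 8 of 8 higher and 6 of 8 lower in ST had the same sign at 60 min. The change of the difference between the times was tested in the 12 flagellin arrays, and limma called 0 of 15756 clusters (0%; smallest adjusted p = 0.533), while 494 were larger and 442 smaller at an unadjusted p under 0.05. The smallest p values were those of MIR4525 (-1.02 at 60 min and 0.44 at 120 min), the centrosomal TACC1 (0.26 and -0.44) and the ribosome assembly factor RRS1 (0.77 and -0.20).

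**Figure D5:**
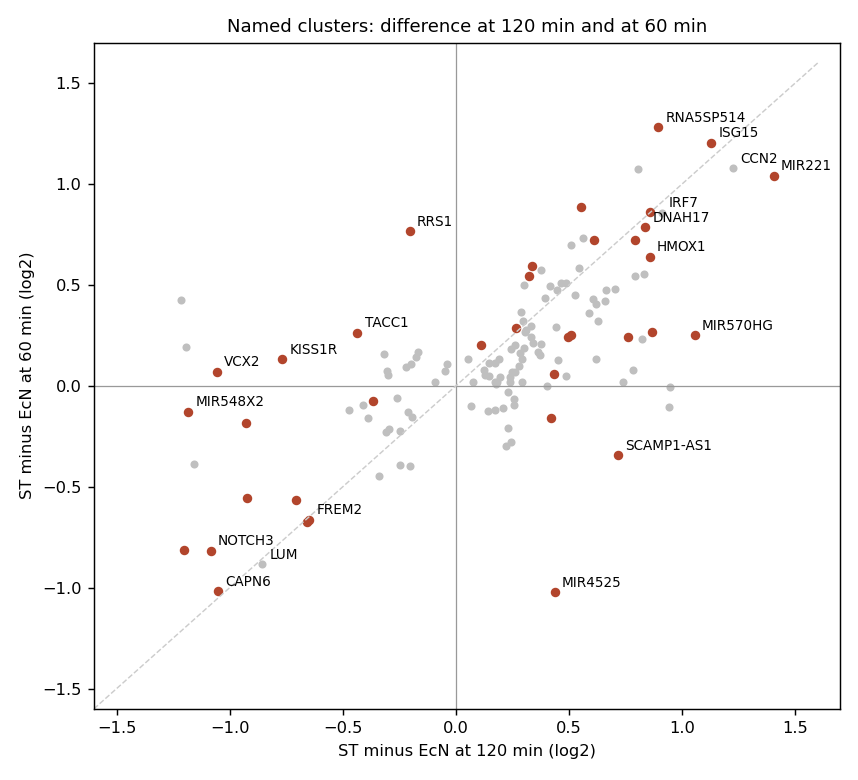
ST minus EcN (log2) at 120 min (x axis) against 60 min (y axis) for the named clusters, 1 point each, red for those chosen by rank or fixed by name and grey for the members of lists; the dashed line marks equal values. ISG15, CCN2, HMOX1 and MIR221 lie in the upper right and CAPN6, NOTCH3, FREM2 and LUM in the lower left, while KISS1R and SCAMP1-AS1 lie near 0 or on the other side at 60 min.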

How the data were processed

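Expression was measured on 3 ST and 3 EcN arrays at 120 min, with 3 and 3 at 60 min for the change with time. The deposited values are log2 levels from RMA (oligo 1.30.0), per the submitters' processing notes. They name no genome build or annotation, so array clusters carry no coordinates. No value was normalized further. Rows were named through the platform annotation (1842 had several symbols, 27904 had none and both were left out), and 655 symbols were updated through RefSeq GRCh38.p14.

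Clusters with a mean over the 6 arrays above 2.30 entered limma 3.58.1 under R 4.3.3 (lmFit, eBayes, two-sided, Benjamini-Hochberg over all 15756 clusters, 4 residual and 3.22 prior degrees of freedom) and were called at an adjusted p under 0.05. Of the clusters, 369 copy another's values exactly, and 347 genes had several. In lists, the cluster with the highest mean stood for its gene. The members, gene lists and rules were chosen with earlier results of these data known. Named clusters were called ones or, with none, the 5 with the smallest p in each direction, with and without the letter as a block; the 8 higher and 8 lower in ST in all letters with the largest smallest difference; up to 4 members of each list by size of difference; 12 fixed genes; and the 3 with the smallest p for the change with time. BST2, SAMD9, CSF1, OTUD7B, MYD88, MAP3K7, PELI1, GCLC, ME1, BAX, TNFRSF10B, CFLAR, XBP1, RPS19, CCN3, KIAA0825, FRY, ITPR3, PLPP2, COX6B1 and ULK2 were named after their values were seen, from counts. The test was checked on simulated data over 5 runs with 200 changed clusters. The number of arrays limits the precision. Alternatives were other models, filters, scalings and left-out arrays.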

Additional observations from a re-analysis of the deposited data

Results flagged for a closer look

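TACC1, which encodes a centrosomal protein, was higher in ST at 60 min and lower at 120 min with no overlap at either time. Its levels were 6.61, 6.77 and 6.70 on the ST arrays at 60 min, against 6.45, 6.50 and 6.35 on the EcN arrays, and 6.44, 6.35 and 6.34 in ST at 120 min, against 6.88, 6.71 and 6.85 in EcN. The change of the difference was -0.70 ± 0.12, and it did not pass the test across all clusters (adjusted p = 0.533, limma).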

How the results depend on the processing

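No cluster was called with or without the letter as a replicate block in the 6 arrays (0 higher and 0 lower; smallest adjusted p = 0.176 with the block), and the smallest adjusted p ran from 0.0901 to 0.395 when 1 array was left out, with 0 called each time. The letters did not meet the criterion for pairs, since deviations correlated at 0.08, 0.19 and 0.34 for A, B and C, and A arrays did not correlate best with each other. Calls appeared when arrays at 60 min shared the estimate of the spread: 2 higher (CCN3 and 1 of 2 clusters of KIAA0825) and 6 lower (FREM2, FRY, HSPG2, ITPR3, PLPP2 and MIR548X2) in the 12 flagellin arrays, and 19 higher and 59 lower with the block added. Those 78 took in IRF7, LIF, GDF15, HMOX1, MIR221, MIR570HG, MMP13, DNAH17, NOTCH3, CAPN6, MAOA, KISS1R, LUM, MIR3978 and RNA5SP150 (adjusted p between 0.0217 and 0.0443). In the 6 arrays with default settings, with and without the block, their adjusted p was above 0.05. Of the clusters called here, MMP13 passed the level filter only through ST and MIR548X2 only through EcN, so their calls are uncertain. Trend and robust settings gave 2 higher (COX6B1 and HMOX1) and 3 lower (FREM2, ITPR3 and ULK2). With no adjustment and p under 0.05, 583 clusters were higher and 761 lower without both arrays lettered A, and 668 and 779 without both lettered B. Of 106 clusters of the results followed through the alternatives, 102 kept their sign under every alternative run. The exceptions were NFKBIA, CXCL8, TNF and TNFAIP3. With array weights they differed by -0.0244, -0.223, -0.0430 and -0.0736. With 1 array left out, NFKBIA ran from -0.487 (without ST C) to 1.01 (without EcN C), CXCL8 from -1.43 to 2.17, TNF from -0.675 to 1.3002 and TNFAIP3 from -0.727 to 1.37, with the same 2 arrays at the ends. The other fits, filters and scalings listed here called 0: all 18 arrays, the letter as a random block, no filter or a stricter one, centring, quantile normalization anew, 1 cluster per gene and array weights. The cause of these differences between fits was not tested. The change from 60 to 120 min had 0 calls in every alternative run.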
